A study of Homo sapiens with 6 samples.

Results

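NRF2 is a transcription factor that drives genes for antioxidant defence and detoxification, and its mRNA comes from the gene NFE2L2. Transcripts of the NRF2 pathway and of the main redox enzymes were examined in AGS cells, an established line from a human gastric adenocarcinoma, with and without knockdown of the pseudogene ANXA2P1. The members were 52 genes listed by symbol, from the NRF2 regulators to the enzymes of glutathione, thioredoxin, peroxide, quinone and heme metabolism. Of these, 51 were among the 11846 genes of the deposited expression table. ME1, the gene of cytosolic malic enzyme, was not analysed here. Of those 51, 50 were expressed enough to be tested, ABCC2 being the exception, and 20 of the 50 are on a list of well-known NRF2 targets.

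Poly(A) RNA was sequenced in 3 control and 3 knockdown libraries, called biological replicates by the labels. By the labels the control cells carried a scrambled shRNA, while the knockdown cells are labelled as treated with ANXA2P1 knockdown and 1 protocol names an ANXA2P1 shRNA reagent. In the methods of the study the same comparison is a CRISPRi one (dCas9-KRAB with guides against ANXA2P1, or a scrambled guide), so both sources differ on the means of silencing. The labels and methods give no time after silencing, and all cells were of this 1 line, grown in serum-containing medium. The level of ANXA2P1 was not analysed here. Any batch running along with the groups cannot be told apart from the knockdown. In RNA from whole cultures, fewer cells of a type and less RNA per cell cannot be told apart either.

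In resting cells the adaptor KEAP1 holds NRF2 and hands it to a ubiquitin ligase, so most control of NRF2 lies in the stability of the protein. Oxidants and electrophiles modify KEAP1, NRF2 accumulates, pairs with a small MAF protein and binds antioxidant response elements in front of its targets, where the heme sensor BACH1 acts as a competing repressor. Raised NRF2 activity is seen in many epithelial tumours and is known for resistance to drugs and to oxidative stress. No protein or activity was measured in these libraries, only mRNA.

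The core of the antioxidant response element, searched as TGACNNNGC on both strands, was looked for in RefSeq promoter windows of 300 bases (250 before and 50 after each start site, GRCh38.p14). Windows were found for 38 of the member genes, and 9 of them held the core (23.7%), against 19.2% of 9593 genes of the table with a window and 16.1% of 27305 RefSeq genes. A member with several start sites counted once. Among listed NRF2 targets 4 of 15 held it (26.7%) and among the other members 5 of 23 (21.7%). Elements farther from the start site were not searched for, so these shares do not say how many targets carry one. The sites below, with the core in capitals, are shown because their genes span the range of differences described later, from AIFM2 and GPX2 with higher means in the knockdown, over GCLM with equal means, to TXNRD1 and MAFF with lower ones. A match of letters is a description and not evidence of binding.
AIFM2, chr10:70132831-70132855, plus strand: gcggggcgTGACTCAGCactcgtgc
GPX2, chr14:64942851-64942875, plus strand: ccccaggaTGACTTAGCaaaaacag
GCLM, chr1:93909448-93909472, plus strand: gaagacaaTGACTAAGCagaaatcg
TXNRD1, chr12:104215672-104215696, plus strand: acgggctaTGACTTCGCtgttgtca
MAFF, chr22:38201864-38201888, minus strand: cccccgtaTGACCCCGCcccctgga
The genes AIFM2, GPX2 and GCLM run on the minus strand, so their cores are read on the strand opposite to the transcript. In MAFF, on the plus strand, the core also lies on the opposite strand, and the TXNRD1 core shown runs the same way as its gene. Further TXNRD1 cores, not shown, lie on the opposite strand, within chr12:104215763-104215787 and chr12:104286922-104286946.

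Levels are given as FPKM, fragments counted on a gene relative to its length and to the depth of the library. A comparison between genes therefore rests on the length taken for each gene. AGS cells held much of this pathway at high mRNA level. FTL, the light chain of the iron store ferritin, led with a mean of 7132 FPKM over the 6 libraries, followed by the peroxiredoxin PRDX1 with 344 FPKM and the ferritin heavy chain FTH1 with 330.4 FPKM. Thioredoxin (TXN, 265 FPKM), the quinone reductase NQO1 (243 FPKM) and the glutathione peroxidase GPX1 (224 FPKM) came next. These 6 genes span ferritin, peroxide removal and quinone reduction, and apart from GPX1 they are all on the NRF2 target list.
At the other end lay NRF2 targets with little mRNA. SRXN1, the sulfiredoxin that repairs over-oxidised peroxiredoxins, had 1.22 FPKM on average, and the aldo-keto reductases AKR1C3, AKR1C2 and AKR1C1 had 1.65, 1.35 and 0.605 FPKM. The median reads per library of AKR1C3, AKR1C2 and AKR1C1 were 49, 194 and 125.5. Their order by FPKM thus depends on the gene lengths behind it. ABCC2, an exporter of glutathione conjugates, had 0.248, 0.188 and 0.236 FPKM in controls 1, 2 and 3 and 0.347, 0.230 and 0.250 FPKM in knockdowns 1, 2 and 3, below the mean of 0.5 FPKM set for testing. The target list therefore held both the most and the least abundant member.

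**Figure D1:**
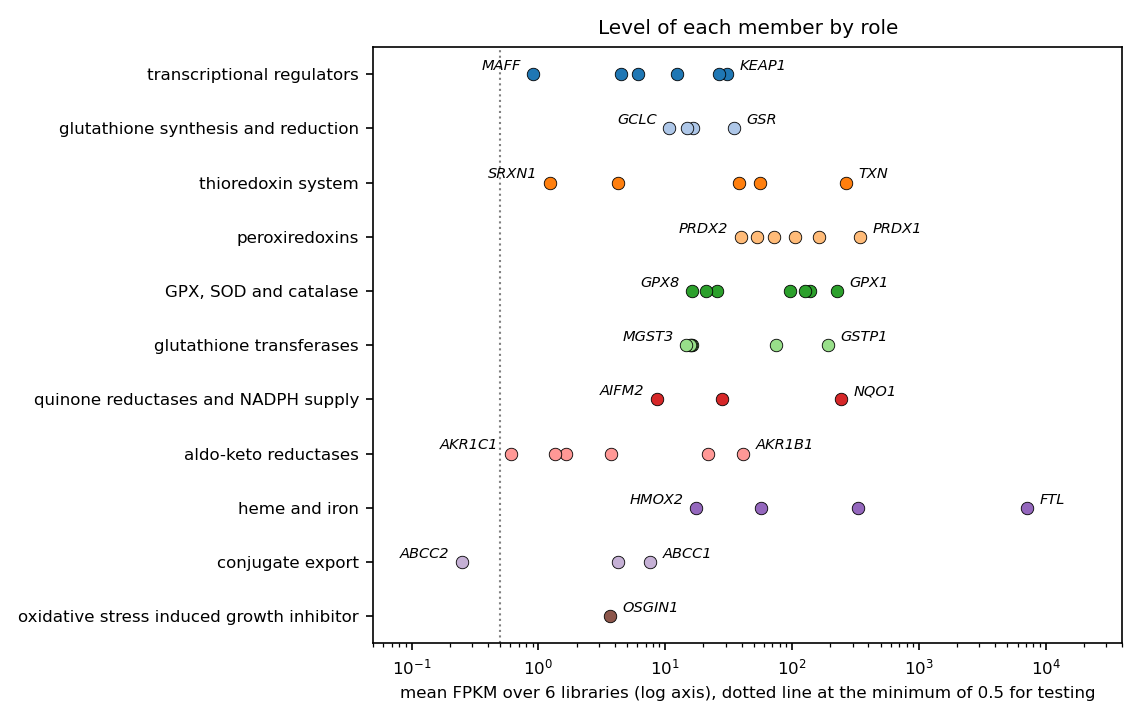
Mean FPKM over the 6 libraries (log axis) of the 51 members, 1 point per gene, by role, with the highest and lowest gene of each role named. FTL stands at 7132 FPKM and ABCC2, left of the dotted minimum of 0.5 FPKM, at 0.25 FPKM.

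The groups were compared with limma on log2(FPKM + 0.1) over 10813 genes, with p-values adjusted over all of them by Benjamini-Hochberg. No member passed an adjusted p of 0.05 (0 of 50, against 14 of 10813 genes or 0.129%, with 0.111% lower and 0.0185% higher), and limma voom on recovered reads also called none. At an unadjusted limma p under 0.05 stood 3 members, NFE2L2 and MAFF with lower and MAFK with higher means in the knockdown, which is 6% of the members beside 10.6% of all genes (5.92% lower and 4.71% higher). A fold above 1.2, the threshold the study names for its expression data, at an unadjusted p under 0.05 was met by NFE2L2 and MAFF alone, 2 of 50 members (4%, both lower) beside 4.88% of all genes (3.35% lower and 1.54% higher). The groups did not overlap for 7 of 50 members (14%, beside 19.0% of all genes). These were NFE2L2, BACH1, MAFF, GSR and PRDX3 on the lower side (10%, beside 9.13% of all genes) and MAFK and AIFM2 on the higher side (4%, beside 9.86%). All of these shares were near or under those of all genes.
On the log2 scale of the fit, the median difference between knockdown and control was 0.025 over the members and 0.010 over all genes tested. It lay within 0.2 of 0 for 44 of 50 members (88%, beside 85.3% of all genes). Differences below 0 were seen for 16 of 50 members (32%, beside 46.9% of all genes) and for 4 of the 20 listed NRF2 targets (20%), whose median was 0.055. Of those 20 targets 0 reached an unadjusted p under 0.05 in this limma fit (0%, beside 10.6% of all genes). Only GSR and AIFM2 had groups that did not overlap (10%, beside 19.0% of all genes). The medians of the members and of the NRF2 targets thus lay near 0. Without regard to sign, the median difference was 0.062 for the members and 0.10 for the targets, beside 0.086 for all genes.

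**Figure D2:**
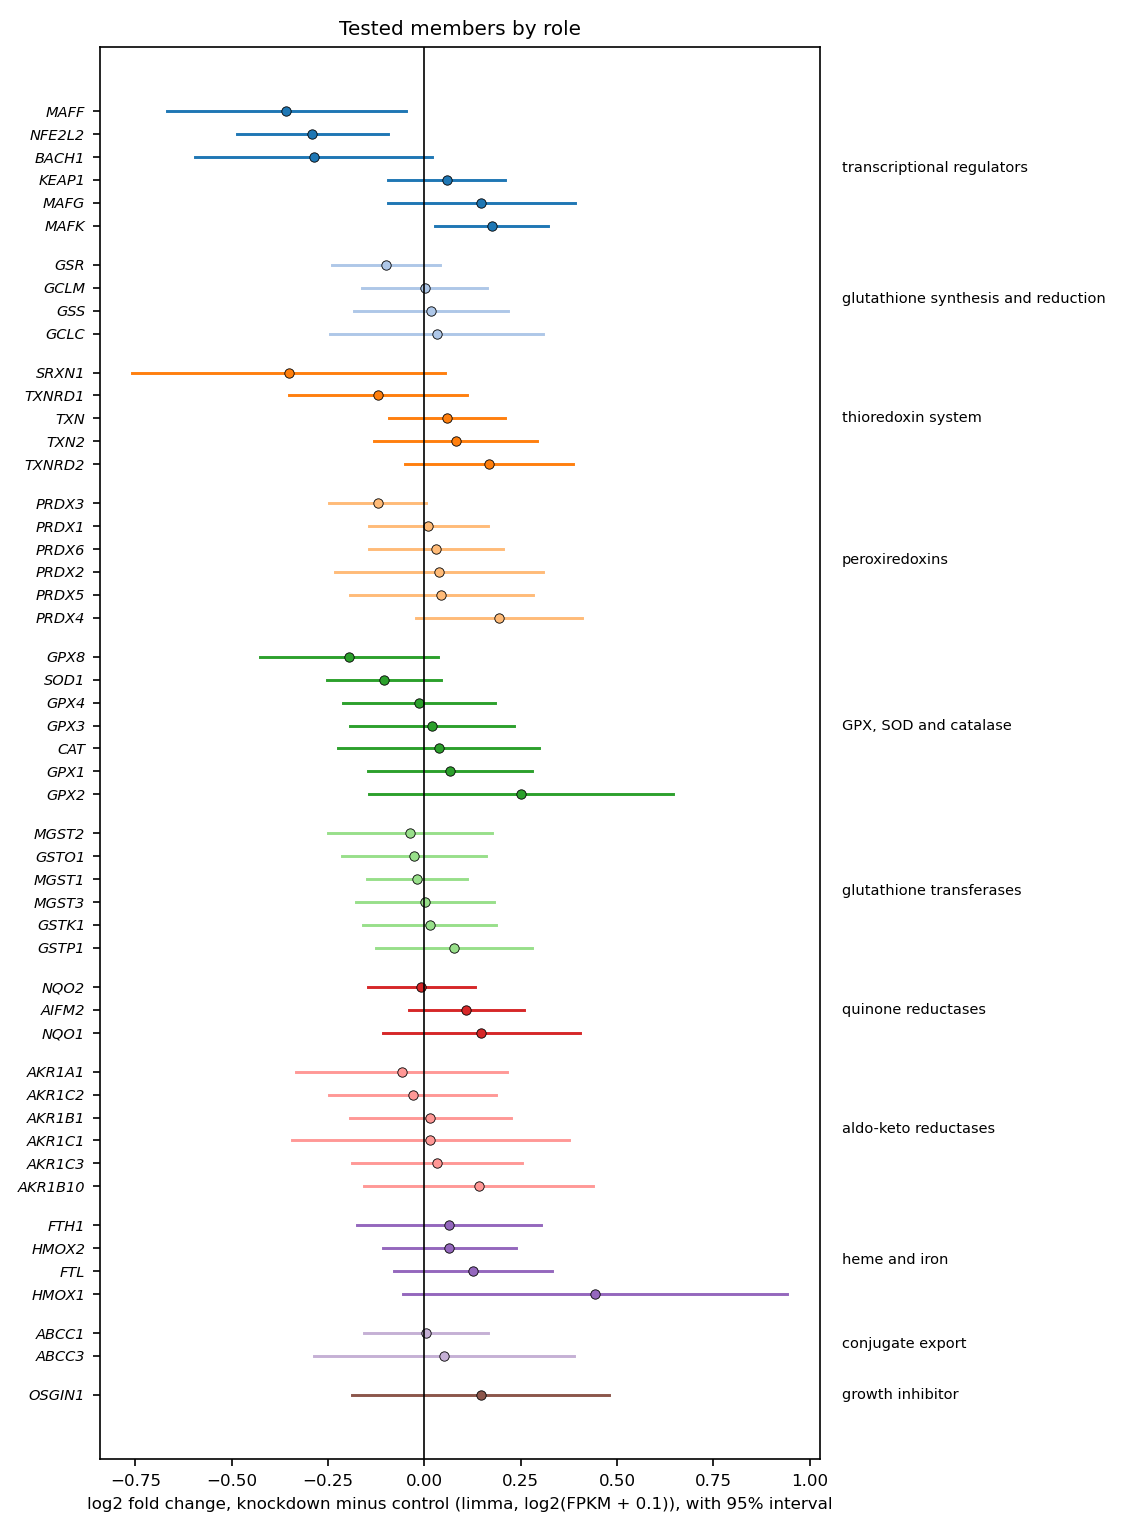
Log2 fold change of knockdown against control (points) with its 95% interval (lines) from limma on log2(FPKM + 0.1) for the 50 tested members, coloured and labelled by role, n = 3 libraries per group. Only the intervals of MAFF, NFE2L2 and MAFK leave 0 out, and HMOX1 has the widest interval, from −0.055 to 0.94.

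Of the 6 regulators none passed the adjusted p. In limma 3 of them had an unadjusted p under 0.05 (50%, beside 10.6% of all genes), a share that rests on only 6 genes. NFE2L2, which lies on chromosome 2 from 177227595 to 177392697 (minus strand, hg38, GENCODE release 29), had 29.03, 29.1 and 28.6 FPKM in controls 1, 2 and 3 and 21.3, 23.2 and 26.7 FPKM in knockdowns 1, 2 and 3. Every knockdown library lay below every control, the controls lay close together, and knockdown 3 came nearest to them. The means were 28.9 ± 0.291 and 23.7 ± 2.71 FPKM (SD, n = 3 each), a ratio of 0.818. Its log2 fold change of −0.29 had an SE of 0.0849, a 95% interval from −0.49 to −0.095 and a limma adjusted p of 0.270. Leaving out 1 library at a time kept it negative each time, between −0.38 without knockdown 3 and −0.22 without knockdown 1, with adjusted p between 0.0932 and 0.716 in limma.

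KEAP1, whose protein sends NRF2 to degradation, had 31.6, 28.3 and 29.9 FPKM in the controls and 32.3, 31.1 and 30.0 FPKM in the knockdown libraries. These ranges overlapped in part, with knockdown 1 above all controls and controls 2 and 3 below all knockdown libraries (log2 fold change 0.058, SE 0.0661, limma adjusted p = 0.795). The mRNA of the factor was thus lower in each knockdown library while that of its inhibitor was within the control spread or just above it.

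BACH1, the repressor at the same elements, showed 4.97, 5.34 and 4.47 FPKM in the controls against 3.24, 4.45 and 4.46 FPKM. Control 3 and knockdown 3 nearly met, and most of the distance came from knockdown 1. The log2 fold change of −0.29 (SE 0.134, limma adjusted p = 0.494) became −0.14 without knockdown 1.

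The small MAF genes, whose proteins are the binding partners of NRF2 and of BACH1, did not go 1 way. MAFF, on chromosome 22 from 38200767 to 38216511, had 1.01, 0.922 and 1.16 FPKM in the controls and 0.864, 0.673 and 0.809 FPKM in the knockdown libraries. All knockdown values were lower, but they rest on only 43 to 79 reads per library (log2 fold change −0.36, SE 0.135, limma adjusted p = 0.395). MAFK, on chromosome 7 from 1530714 to 1543043, had 5.69, 5.56 and 5.81 FPKM in the controls and 6.31, 6.59 and 6.40 FPKM in the knockdown libraries. Here all knockdown values were higher and both groups were tight, at 5.69 ± 0.121 and 6.43 ± 0.144 FPKM (SD, n = 3 each). For MAFK the log2 fold change reached 0.17 (SE 0.0638, limma adjusted p = 0.381). MAFG, itself an NRF2 target, had 11.9, 11.6 and 11.5 FPKM against 15.2, 11.2 and 12.8 FPKM. Its knockdown libraries lay on both sides of the controls (log2 fold change 0.15, SE 0.105, limma adjusted p = 0.660), and the value was 0.034 without knockdown 1 and 0.25 without knockdown 2.

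**Figure D3:**
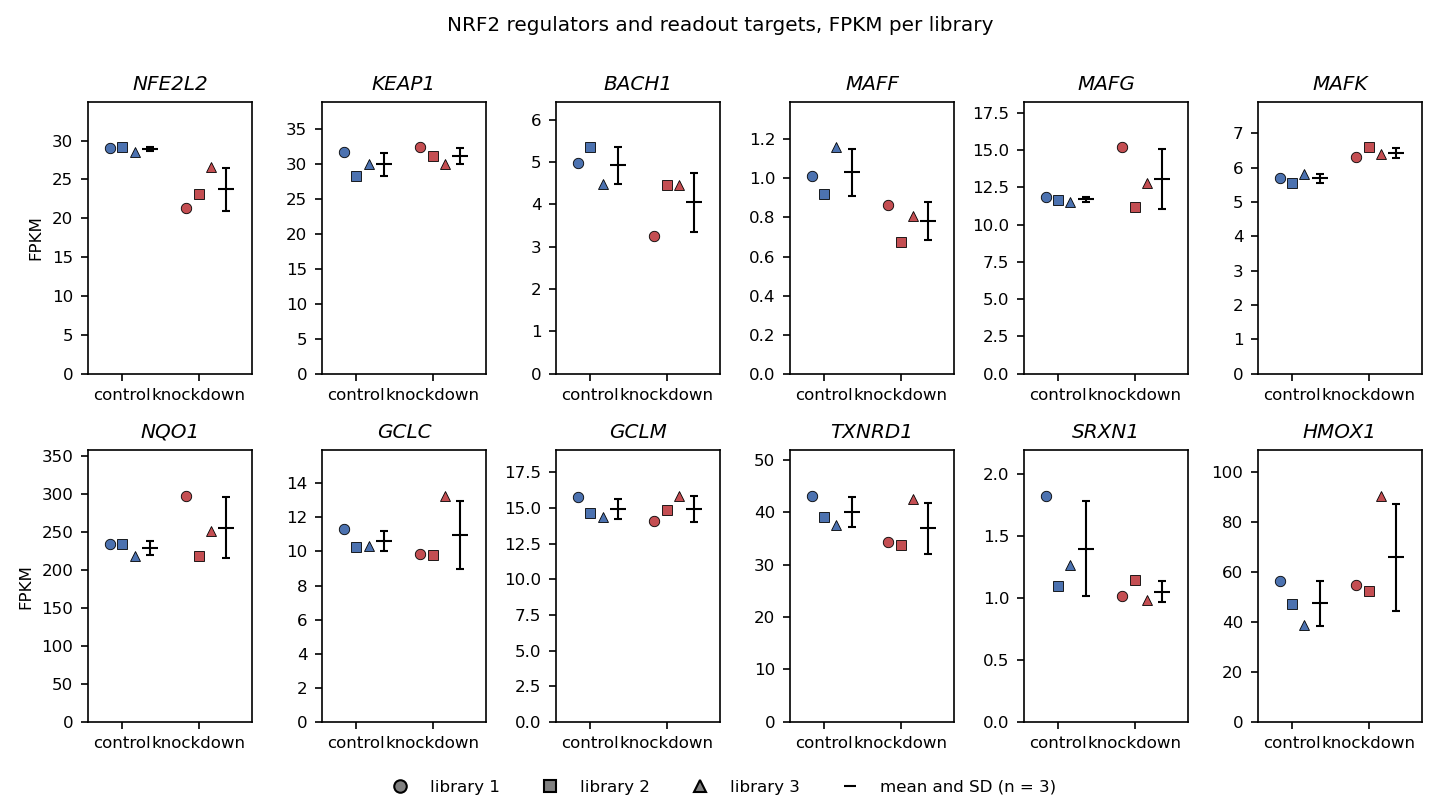
FPKM per library (points, by library number) of the 6 regulators and 6 NRF2 targets in control (blue) and knockdown (red), with mean and SD beside them (n = 3), each panel on its own axis from 0. NFE2L2, BACH1 and MAFF lie lower and MAFK higher in all 3 knockdown libraries, while HMOX1 stands out at 90.5 FPKM in knockdown 3.

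Glutathione is made in a pair of steps, the first by glutamate-cysteine ligase with its catalytic subunit GCLC and its modifier GCLM, the next by GSS, and its oxidised form is reduced by GSR. GCLC had 11.3, 10.3 and 10.3 FPKM in the controls and 9.83, 9.82 and 13.3 FPKM in the knockdown libraries, so knockdowns 1 and 2 lay below all controls and knockdown 3 above them. GCLM had 15.7, 14.7 and 14.4 FPKM and 14.1, 14.8 and 15.9 FPKM. Both ligase subunits thus had their highest value in knockdown 3. For GCLM the means were equal at 14.9 ± 0.721 and 14.9 ± 0.890 FPKM (SD, n = 3 each), with a 95% interval of the log2 difference from −0.16 to 0.16. That interval leaves out a change of the ligase modifier by more than about this size, and that of GCLC ran from −0.24 to 0.31.
GSR had 38.2, 35.1 and 35.1 FPKM in the controls and 34.0, 33.6 and 33.4 FPKM in the knockdown libraries. The groups did not overlap, though the distance was small beside the spread of the controls (log2 fold change −0.10, SE 0.0608, limma adjusted p = 0.609). GSS lay at 16.3 to 16.6 FPKM in the controls and at 15.3 to 19.0 FPKM in the knockdown, around the control range.

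In the thioredoxin system, TXNRD1, the cytosolic reductase that keeps thioredoxin reduced, had 43.2, 39.2 and 37.7 FPKM in the controls and 34.4, 33.8 and 42.5 FPKM in the knockdown. Knockdowns 1 and 2 lay below every control and knockdown 3 within their range (log2 fold change −0.12, SE 0.1003, limma adjusted p = 0.708). SRXN1 had 1.82, 1.09 and 1.27 FPKM against 1.02, 1.15 and 0.986 FPKM, on 52 to 109 reads per library. Control 1 alone made most of its log2 fold change of −0.35 (SE 0.176, limma adjusted p = 0.526), which was −0.16 without that library. TXNRD2, the mitochondrial reductase, had 3.67, 4.24 and 4.11 FPKM and 4.96, 4.44 and 4.15 FPKM, with knockdown 3 inside the control range (log2 fold change 0.17, SE 0.0945, limma adjusted p = 0.578). Thioredoxin itself, TXN, had 268, 249.97 and 259.8 FPKM and 281, 262 and 267 FPKM, which overlap. Its mitochondrial paralog TXN2 lay at 53.6 to 54.9 FPKM in the controls and at 51.1 to 65.7 FPKM in the knockdown, with knockdown 1 the highest.

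Most peroxiredoxins reduce hydrogen peroxide with electrons from thioredoxin. PRDX3, the mitochondrial member, had 74.99, 74.8 and 74.2 FPKM in the controls and 67.9, 69.3 and 68.6 FPKM in the knockdown libraries. Both groups were tight and apart, at 74.7 ± 0.416 and 68.6 ± 0.715 FPKM (SD, n = 3 each), yet the difference was small, −0.12 on the log2 scale (SE 0.0548, limma adjusted p = 0.484). PRDX4, the member of the endoplasmic reticulum, had 50.4, 47.1 and 51.3 FPKM and 62.9, 58.6 and 49.5 FPKM. Knockdowns 1 and 2 lay above all controls and knockdown 3 within them (log2 fold change 0.19, SE 0.0937, limma adjusted p = 0.508).
PRDX1, the most abundant member of the family, had 361, 326 and 341 FPKM in the controls and 346, 338 and 350.4 FPKM in the knockdown, all within the control range. PRDX2, PRDX5 and PRDX6 each had their highest value in knockdown 1 and their lowest in knockdown 3, PRDX5 for example at 158, 164 and 159 FPKM against 194, 157 and 147 FPKM. The knockdown libraries of these 3 genes were spread around the controls on both sides.

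Most glutathione peroxidases reduce peroxides with glutathione, GPX4 being the one that acts on membrane lipids. GPX1, the most abundant, had 229, 205 and 223 FPKM in the controls and 253, 234 and 203 FPKM in the knockdown, and GPX4 lay at 120.4 to 131 and at 113 to 137 FPKM. Neither group of values stood apart from the other (log2 fold changes 0.067 and −0.014, limma adjusted p = 0.832 and 0.966). GPX2, an NRF2 target of the gastrointestinal epithelium, had 81.7, 98.9 and 80.5 FPKM and 132, 80.0 and 104 FPKM. Knockdown 1 was the highest and knockdown 2 the lowest of all 6, which left a log2 fold change of 0.25 with a 95% interval from −0.14 to 0.64 (limma adjusted p = 0.651). GPX8, of the endoplasmic reticulum, had 15.6, 19.4 and 17.1 FPKM and 16.6, 13.7 and 15.1 FPKM (log2 fold change −0.19, SE 0.1003, limma adjusted p = 0.536). Here knockdown 1 lay within the controls and knockdowns 2 and 3 below them. SOD1, the cytosolic superoxide dismutase, had 146, 141 and 143 FPKM and 141, 131 and 128 FPKM, and catalase (CAT) lay between 23.5 and 28.5 FPKM in the controls and between 23.5 and 30.2 FPKM in the knockdown.

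Glutathione transferases couple glutathione to electrophiles. GSTP1, the most abundant of the 6 tested, had 196, 168 and 194 FPKM in the controls and 209.8, 199 and 180.3 FPKM in the knockdown (log2 fold change 0.077, limma adjusted p = 0.794). The other 5, GSTO1, GSTK1, MGST1, MGST2 and MGST3, had log2 fold changes between −0.038 and 0.013, and for none of them did the groups stand apart. MGST1 was even across the libraries, with 15.7 to 16.5 FPKM in the controls and 15.9 to 16.1 FPKM in the knockdown libraries.

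Among the quinone reductases, NQO1, a widely used readout of NRF2 activity, had 235, 234 and 219 FPKM in the controls and 298, 218 and 252 FPKM in the knockdown libraries. Knockdown 1 and 3 lay above and knockdown 2 just below all controls. The log2 fold change of 0.15 had an SE of 0.111 and a 95% interval from −0.11 to 0.40 (limma adjusted p = 0.678), and it was 0.032 without knockdown 1 and 0.26 without knockdown 2. AIFM2, also called FSP1, which regenerates the lipid antioxidant ubiquinol, had 8.42, 8.00 and 8.32 FPKM and 9.17, 9.06 and 8.49 FPKM. All its knockdown values were higher, knockdown 3 barely so (log2 fold change 0.11, SE 0.0647, limma adjusted p = 0.601). NQO2 lay at 27.6 to 29.3 FPKM in the controls and at 27.1 to 29.1 FPKM in the knockdown.

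The aldo-keto reductases reduce carbonyls, and AKR1B10 and the AKR1C genes are among the strongest NRF2 targets of human epithelial cells. AKR1B10 had 3.72, 3.54 and 3.34 FPKM in the controls and 4.71, 3.27 and 3.87 FPKM in the knockdown, on 132 to 169 reads per library (log2 fold change 0.14, SE 0.129, limma adjusted p = 0.743). That value was 0.0088 without knockdown 1 and 0.27 without knockdown 2. AKR1C1 had 0.618, 0.559 and 0.615 FPKM and 0.694, 0.471 and 0.671 FPKM. AKR1C2 had 1.38, 1.36 and 1.34 FPKM and 1.41, 1.30 and 1.29 FPKM, and AKR1C3 had 1.66, 1.61 and 1.61 FPKM and 1.74, 1.52 and 1.74 FPKM. None of the 4 had groups that stood apart, and knockdown 2 was the lowest library for AKR1B10, AKR1C1 and AKR1C3.
The AKR1C genes lie side by side on chromosome 10, from the start of AKR1C1 at 4963253 to the end of AKR1C3 at 5107686. Their coding sequences of 972 bases were near copies, 98.0% identical between AKR1C1 and AKR1C2 with an unbroken identical run of 189 bases, 91.9% between AKR1C1 and AKR1C3 and 91.3% between AKR1C2 and AKR1C3. Neither labels nor methods say how reads shared by such copies were assigned, so the split of the signal among the AKR1C genes is uncertain. AKR1B1, the most abundant of the group, had 41.8, 40.5 and 40.5 FPKM and 46.6, 41.8 and 36.3 FPKM, and AKR1A1 lay at 21.2 to 23.1 and at 17.8 to 25.4 FPKM. Both had their highest value in knockdown 1 and their lowest in knockdown 3.

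HMOX1, heme oxygenase 1, which breaks down heme and is induced through NRF2 when BACH1 leaves its elements, had 56.6, 47.0 and 38.7 FPKM in the controls and 54.9, 52.2 and 90.5 FPKM in the knockdown libraries. Knockdown 3 stood far above the other libraries, and knockdowns 1 and 2 lay inside the control range. HMOX1 lies on chromosome 22 from 35380361 to 35394214 (plus strand). With means of 47.4 ± 8.93 and 65.9 ± 21.4 FPKM (SD, n = 3 each) HMOX1 had the highest log2 fold change of the members, 0.44 (SE 0.217, limma adjusted p = 0.513). Without knockdown 3 it was 0.19, and with limma array weights, which weight the libraries unequally, it was 0.86. HMOX2, the constitutive oxygenase, lay at 15.5 to 18.0 FPKM in the controls and at 16.9 to 18.5 FPKM in the knockdown.
FTL had 7100.4, 6521 and 6819.85 FPKM in the controls and 8182, 6764 and 7405 FPKM in the knockdown, with knockdown 2 inside the control range (log2 fold change 0.13, SE 0.0889, limma adjusted p = 0.660). Without knockdown 1 it was 0.056 and without knockdown 2 0.19. FTH1 had 338, 305 and 323 FPKM and 375, 288 and 353 FPKM. In both ferritin chains knockdown 2 was the lowest of the knockdown libraries and knockdown 1 the highest.
Of the exporters of conjugates, ABCC1 had 7.19, 8.15 and 7.49 FPKM in the controls and 7.57, 7.54 and 7.74 FPKM in the knockdown (log2 fold change 0.0029, limma adjusted p = 0.993). ABCC3 lay at 3.78 to 4.85 and at 3.50 to 4.94 FPKM. OSGIN1, an NRF2 target that restrains growth under oxidative stress, had 3.95, 2.94 and 3.44 FPKM and 3.95, 3.16 and 4.38 FPKM. The groups of all 3 genes overlapped.

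The knockdown libraries also differed among themselves. Knockdown 1 held the highest value of the 6 libraries for 31 of 50 members (62%), against 33.7% of all genes tested, and lay above all controls for 33 of 50 (66%, against 41.2%). Relative to the control mean, the median member stood at 0.15 on the log2 scale in knockdown 1 and at −0.045 and −0.025 in knockdowns 2 and 3. The median over all genes in knockdown 1 was 0.020.
By role, the median in knockdown 1 was 0.22 for the peroxiredoxins and 0.21 for the glutathione peroxidases with SOD1 and catalase, while in knockdown 3 it was −0.10 and −0.14. Other roles differed from this, with medians of −0.056 for the regulators and −0.082 for glutathione synthesis and reduction in knockdown 1, and of 0.22 and 0.13 for heme and iron in knockdowns 1 and 3. Listed NRF2 targets had another pattern, with 0.17, −0.098 and 0.12 in knockdowns 1, 2 and 3. Knockdown 3 held the highest value of the 6 for 4 members, GCLC, GCLM, HMOX1 and OSGIN1 (8% of members, against 22.6% of all genes), all on the NRF2 target list. The same library held the lowest value of the 6 for 17 of 50 members (34%, against 18.4% of all genes). The listed targets GSR, SRXN1 and AKR1C2 were among these. NFE2L2 mRNA was the highest of the knockdown libraries in knockdown 3, at 26.7 FPKM and below every control. It was the lowest in knockdown 1, at 21.3 FPKM, where NQO1, GPX2, FTL and FTH1 of the target list had their highest value. Whether targets follow NFE2L2 across libraries was not tested.

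**Figure D4:**
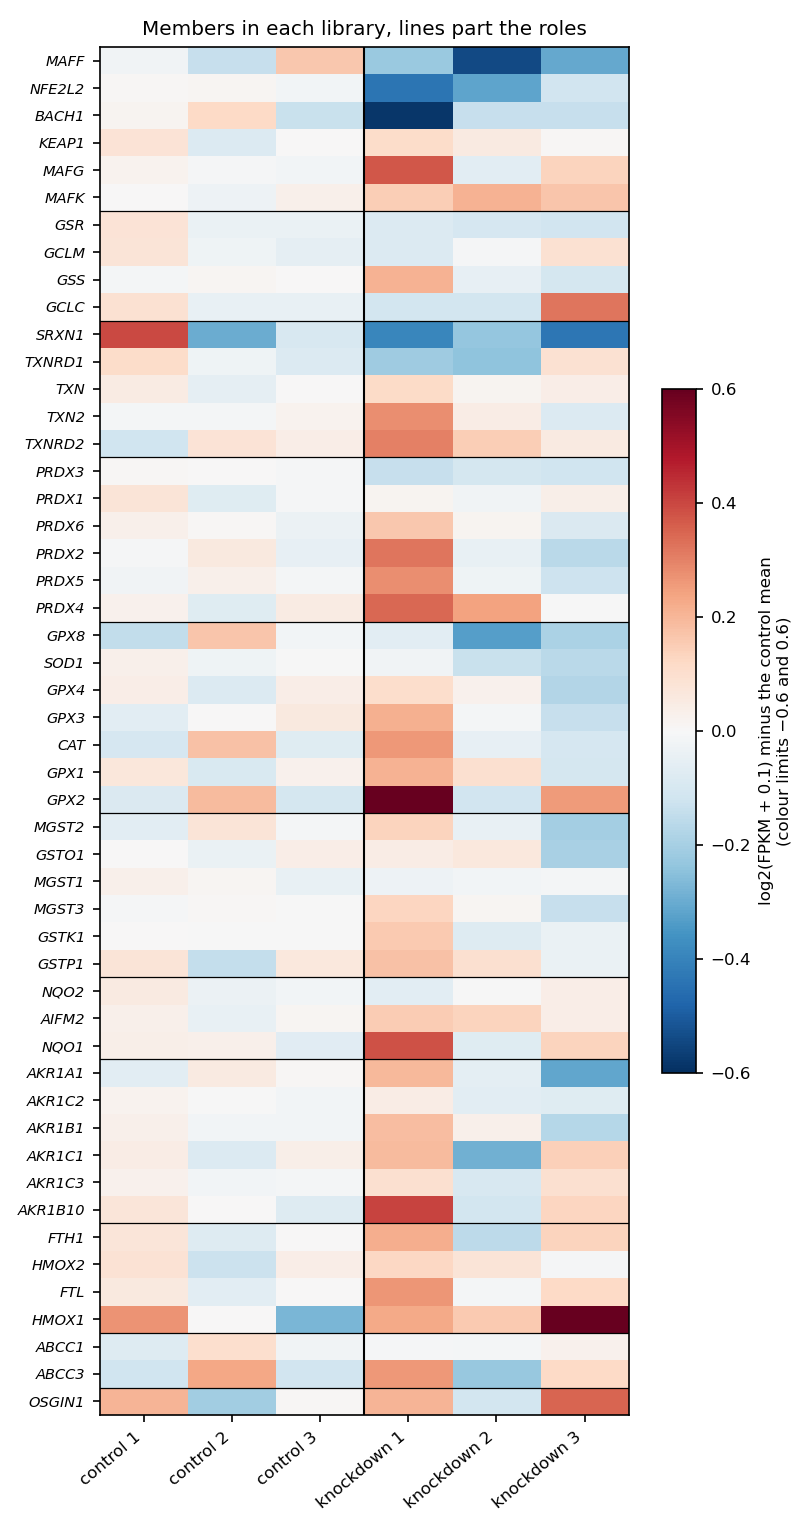
Log2(FPKM + 0.1) of the 50 tested members minus the control mean (colour, limits −0.6 and 0.6) in each of the 6 libraries, rows by role with lines between roles. The column of knockdown 1 is mostly red (median 0.15), knockdown 2 is mostly pale or blue (−0.045), and knockdown 3 is blue for most peroxiredoxins and glutathione peroxidases but red for HMOX1 and GCLC.

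The members also differed from all genes in length and GC content, whose part in the pattern of knockdown 1 was not tested. The members had a median exon length of 3625 bases and a GC content of 52.4%, against 5088 bases and 48.2% for all genes tested. With all genes in 4 equal bins of exon length, the shortest bin in knockdown 1 had a median of 0.12 relative to the control mean on the log2 scale and the longest bin −0.10, and in knockdown 3 the values were −0.046 and 0.066. With the trend on length and GC removed within each library, an alternative added after seeing the data, knockdown 1 was highest for 19 of 50 members (38%, against 27.4% of all genes), and the median member stood at 0.048, −0.049 and 0.0046 in knockdowns 1, 2 and 3. Knockdown 1 also had the lowest depth and the lowest summed level of 20 G2/M genes, 710.1 FPKM against 818 to 1059 FPKM in the controls and 950.0 and 949 FPKM in knockdowns 2 and 3, whose part in the pattern was not tested.

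Around the members, 112 further genes of the pathway were listed by role (partners of NRF2 turnover, cystine import, glutaredoxins, pentose phosphate enzymes, heme and iron handling, ferroptosis and other NRF2 targets), of which 96 were in the table and 93 were tested. None passed an adjusted p of 0.05 in limma, 6 had an unadjusted p under 0.05 (6.45%, beside 10.6% of all genes), and 12 had groups that did not overlap (12.9%, beside 19.0% of all genes), 6 in each direction (6.45% each, beside 9.13% lower and 9.86% higher). Their median log2 fold change was 0.022.
The lowest p belonged to GLO1, the glyoxalase that clears methylglyoxal with glutathione, at 125.9, 118 and 116 FPKM in the controls and 89.2, 93.1 and 93.9 FPKM in the knockdown. Its groups were tight and well apart (log2 fold change −0.38, SE 0.0631, limma adjusted p = 0.0693), just outside the threshold. Without knockdown 1, or with the length and GC trend removed, it passed in limma, at adjusted p of 0.0176 and 0.0404. In the other alternatives its adjusted p reached 0.433 (without control 1), with 0.262 under the replicate block and 0.159 with array weights.
SLC7A11, the cystine importer that feeds glutathione synthesis and is driven by NRF2 and by ATF4, had 20.7, 30.4 and 22.8 FPKM and 17.7, 13.5 and 18.4 FPKM. All knockdown values were lower, but the controls were scattered (log2 fold change −0.57, SE 0.162, limma adjusted p = 0.259). The summed level of 14 ATF4 and amino acid response genes, SLC7A11 among them, was 903 to 1097 FPKM in the controls and 1039, 754 and 758 FPKM in knockdowns 1, 2 and 3, and its part in the SLC7A11 difference was not tested. SQSTM1, the autophagy receptor p62 that binds KEAP1 and is an NRF2 target, had 55.4, 49.1 and 51.4 FPKM and 68.7, 57.3 and 66.5 FPKM. It lay higher in all knockdown libraries (log2 fold change 0.30, SE 0.0860, limma adjusted p = 0.259). GCH1, which makes the antioxidant cofactor tetrahydrobiopterin, had 18.3, 18.2 and 17.7 FPKM and 16.6, 15.3 and 14.04 FPKM, lower in all knockdown libraries (log2 fold change −0.24, limma adjusted p = 0.288). SYVN1, a ubiquitin ligase that also acts on NRF2, was higher in all knockdown libraries by 0.11 on the log2 scale (limma adjusted p = 0.586).

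The libraries held 19010940 to 22911995 recovered reads, with a median of 807 reads per gene and library. All 9 epithelial markers were in the table, from 1465 to 1558 FPKM in sum in the controls and from 1527 to 1729 FPKM in the knockdown. KRT19, KRT8, EPCAM and KRT18 were the highest of them. KRT7 (0.512 to 0.829 FPKM) and CDH1 (1.89 to 2.46 FPKM) were low in every library. Of 10 stomach markers 4 were in the table, at a sum of 4.14 to 8.33 FPKM, so markers of gastric differentiation were low. For 6 of 8 intestinal markers the sum was 146 to 163 FPKM in the controls and 137 to 145.9 FPKM in the knockdown. These sums barely stood apart, at 146.1 FPKM in control 1 and 145.9 FPKM in knockdown 1. Of these markers only CDX2 and REG4 were lower in every knockdown library than in every control, as were 9.13% of all genes. The groups overlapped for CDH17, VIL1, LGALS4 and TFF3, and 0 intestinal markers passed the adjusted p in limma. Of markers of fibroblasts and endothelium 1 of 10 was in the table (COL1A1), and of blood cell markers 0 of 8.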

How the data were processed

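Total RNA was extracted with TRIzol and mRNA was captured on oligo-dT beads, fragmented and converted to libraries whose second strand carried U. The labels' processing notes name Bowtie2, TopHat and hg38 with no version. Labels and methods name no counter, strand setting or annotation, so overlapping and antisense genes may share reads. The authors deposited 1 table of FPKM values with 11846 genes and a column per library.

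Members, roles and pathway lists were chosen with earlier results of these data known. Genes with a mean of at least 0.5 FPKM over the 6 libraries (10813) were compared with limma 3.58.1 in R 4.3.3 (lmFit and eBayes, trend and robust switched on), taking log2(FPKM + 0.1) and no covariates, and p-values were adjusted over all of them by Benjamini-Hochberg (threshold 0.05). Fold changes on this scale understate those of low genes. The fit was tested on simulated data. P-values measure only the spread between these libraries.

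Since FPKM values of a gene are multiples of the worth of 1 read, reads were recovered, and they came out whole (tolerance 0.001 to 0.05 reads) for 11844 of 11846 genes (99.98%). These served for depth and for limma voom, which called 19 genes and 0 members. Between replicates, the chi-square per degree of freedom was 2.87 to 36.7, so no library was a duplicate. In the labels the groups share replicate numbers, but these did not pair the libraries.

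Genes named with full values were the 6 regulators, 10 common NRF2 readouts, the 10 members with the smallest p, the most abundant member per role, and of the other pathway genes the 3 per direction with the smallest p. Of the last, 1 gene is not reported here. CAT, FTH1, SOD1, TXN2, GPX4, PRDX5 and other members with values were added to account for every member. Promoters came from RefSeq (GRCh38.p14), with no window for MAFK, GSS, GSR, TXN2, PRDX1, PRDX6, SOD1, MGST2, AKR1B10, HMOX1, FTH1, ABCC1 and ABCC3. A planned comparison of proteins was replaced by the longest open reading frames of GENCODE release 29 transcripts for the AKR1C genes, and that of the peroxiredoxins was not run.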

Additional observations from a re-analysis of the deposited data

How the results depend on the processing

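No member passed an adjusted p of 0.05 under any of the 17 alternatives to the limma fit, and the lowest adjusted p of a member was 0.0932, for NFE2L2 without knockdown 3. NFE2L2 kept a negative log2 fold change in all 17, from −0.38 to −0.20. Of 593 values of the 35 named genes, 562 kept direction and side of the threshold, 28 changed sign and 3 newly passed, GLO1 in 2 alternatives and GCH1 (−0.30, adjusted p = 0.0328 in limma) without knockdown 1. The count of all genes past the threshold was 14, and 0 without the trend and robust settings of limma (1168 genes at an unadjusted p under 0.05), 1 with the replicate block (680 at an unadjusted p under 0.05) and 63 with the length and GC trend removed, an alternative chosen after seeing the data; the causes were not tested. Leaving out 1 library gave 0 genes without control 1, control 2, control 3 or knockdown 2 (697, 794, 696 and 823 at an unadjusted p under 0.05), 5 without knockdown 3 and 256 without knockdown 1. Members past a fold of 1.2 with an unadjusted p under 0.05 numbered 2, and 1 with a pseudocount of 1 or a minimum mean of 1 FPKM, which leaves MAFF out. With array weights they also numbered 2, but these were GPX2 and HMOX1 in place of NFE2L2 and MAFF, and with the length and GC trend removed they numbered 3, with SRXN1 added. Without 1 library they numbered 1 to 4: NFE2L2 alone without control 3, MAFF alone without knockdown 1, 4 with BACH1, GPX2 and HMOX1 without knockdown 2, and 4 with BACH1 and PRDX4 without knockdown 3. At an unadjusted p under 0.05 alone, limma with array weights held 5 of 50 members, beside 1074 of 10813 genes. These were NFE2L2 (log2 fold change −0.20) and the listed NRF2 targets MAFG (0.21), NQO1 (0.24), HMOX1 (0.86) and GPX2. Members with groups that did not overlap numbered 8 to 16 when 1 library was left out, where fewer libraries must stand apart. The share of all genes under these settings is not given here, so nothing is read from these counts. The median log2 fold change of the tested members lay between −0.027 without knockdown 1 and 0.066 without knockdown 3.

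Signs changed for members whose log2 fold changes lay between −0.12 and 0.077. With array weights TXNRD1 was 0.035, GPX1 −0.035, GSTP1 −0.022 and AKR1B1 −0.062. GCLM and ABCC1 were −0.0079 and −0.0052 with libraries rescaled to a median ratio of 0, and GCLM, PRDX1 and ABCC1 were −0.013, −0.0033 and −0.010 with a common sum. With the length and GC trend removed KEAP1 was −0.0019, AKR1C2 0.035, PRDX1 −0.021, AKR1B1 −0.029 and ABCC1 −0.043. Leaving out 1 library gave ranges from −0.11 to 0.10 for GCLC, −0.044 to 0.041 for GCLM, −0.072 to 0.17 for AKR1C1, −0.025 to 0.049 for PRDX1, −0.0045 to 0.15 for GPX1, −0.071 to 0.11 for AKR1B1 and −0.036 to 0.053 for ABCC1. Other log2 fold changes kept their sign but moved with 1 library, TXNRD1 from −0.23 (without knockdown 3) to −0.062 (without knockdown 2), PRDX4 from 0.12 (without knockdown 1) to 0.29 (without knockdown 3), GPX8 from −0.27 (without control 1) to −0.11 (without control 2), TXNRD2 from 0.099 (without knockdown 1) to 0.22 (without knockdown 3), GSR from −0.12 (without control 3) to −0.059 (without control 1) and OSGIN1 from 0.041 (without control 2) to 0.27 (without knockdown 2).

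Same-numbered control and knockdown libraries did not deviate together (correlations −0.338, −0.468 and −0.116 over 10813 genes). With the replicate block NFE2L2 had an adjusted p of 0.547 in limma, 0 members passed, and 2 had an unadjusted p under 0.05. With 3 libraries per group and libraries that differ from each other, differences of the size seen here were hard to separate from the spread, and values of MAFF, SRXN1 and AKR1C3 rest on few reads.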
